A study of Mus musculus with 10 samples.

Results

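The Nrf2 target genes and metallothioneins described here are 10 mouse genes of the oxidative and metal stress responses: Hmox1, Nqo1, Gclm, Gclc, Txnrd1, Srxn1, Prdx1, Sod2, Mt1 and Mt2. They were taken as every probe set whose gene symbol in the platform annotation is 1 of these names. 9 of the 10 genes had at least 1 probe set of their own, 18 probe sets in all, out of 12393 genes and 20380 probe sets with 1 gene symbol. Prdx1 had 0 such probe sets, because each of its 5 was annotated to a second gene as well, so it has no value of its own. All 9 measured genes passed the filter on dim signals, as did 7474 genes in total.

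Expression was measured on 10 Affymetrix arrays of dendritic cells grown from mouse bone marrow, 1 array per condition and without replicates. Wild type C57BL/6 mice and Cd14-/- mice on C57BL/6, aged 6 to 8 weeks, gave 5 arrays each. For both genotypes the medium contained supernatant of B16 tumour cells carrying GM-CSF, the growth factor that drives this differentiation, and cultures were used after 7 to 10 days when more than 90% of cells carried CD11c. Within each genotype 1 culture was left unstimulated for 24 h, 2 were given smooth LPS (1 µg/ml) and harvested at 48 or 60 h, and 2 were given LPS together with 50 nM thapsigargin and harvested at the same times. The series' design text calls the unstimulated cultures time 0. LPS is the bacterial lipid sensed through TLR4, CD14 is the co-receptor that hands LPS to it, and thapsigargin is an inhibitor of the SERCA pump, so that calcium builds up in the cytosol. No culture received thapsigargin without LPS. The series set out to look for NFAT-controlled genes of apoptosis. NFAT is a transcription factor that calcium signals switch on.

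Nrf2, encoded by Nfe2l2, is a transcription factor that Keap1 normally sends for degradation and that escapes when oxidants or electrophiles modify Keap1. It then pairs with small Maf proteins at antioxidant response elements and activates genes for glutathione synthesis, quinone reduction and thioredoxin recycling, while Bach1 represses some of the same genes, Hmox1 above all. Metallothioneins are small cysteine-rich proteins that bind zinc and copper, and their genes are activated by MTF-1 at metal response elements. In macrophages and dendritic cells LPS is known to raise several of these genes, and Sod2, the manganese superoxide dismutase of mitochondria, is a well-known NF-kappaB target.

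Promoter sequence is shown for 4 members, because Mt1 and Mt2 moved together across the arrays and Srxn1 and Gclm serve as 2 examples of members with a match to the antioxidant response element. The RefSeq table used (GRCm38.p6) held 10 promoters of 8 of the 10 members, each running from 250 bases before to 50 after the start of transcription, with none for Hmox1 or Gclc. The letters searched on both strands were TGCACNC or TGCGCNC for the metal response element, TGACNNNGC for the antioxidant response element and TGANTCA for the AP-1 site, which can overlap the antioxidant response element. Capitals mark matches to the metal response element in Mt2 and Mt1 and to these letters of the antioxidant response element in Srxn1 and Gclm.
Mt2 (chr8:94172368-94172667, plus strand): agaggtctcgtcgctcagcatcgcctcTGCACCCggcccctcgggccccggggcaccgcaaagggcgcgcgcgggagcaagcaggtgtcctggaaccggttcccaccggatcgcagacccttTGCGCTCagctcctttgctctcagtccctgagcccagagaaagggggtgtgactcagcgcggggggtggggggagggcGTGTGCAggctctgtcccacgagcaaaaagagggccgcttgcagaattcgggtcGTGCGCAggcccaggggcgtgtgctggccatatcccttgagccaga
Mt1 (chr8:94178839-94179138, plus strand): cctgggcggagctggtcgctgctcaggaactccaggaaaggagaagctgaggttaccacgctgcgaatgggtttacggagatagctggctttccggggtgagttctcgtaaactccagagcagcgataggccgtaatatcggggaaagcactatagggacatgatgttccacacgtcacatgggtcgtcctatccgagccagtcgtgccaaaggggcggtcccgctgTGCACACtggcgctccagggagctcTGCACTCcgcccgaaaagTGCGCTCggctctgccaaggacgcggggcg
Srxn1 (chr2:152105274-152105573, plus strand): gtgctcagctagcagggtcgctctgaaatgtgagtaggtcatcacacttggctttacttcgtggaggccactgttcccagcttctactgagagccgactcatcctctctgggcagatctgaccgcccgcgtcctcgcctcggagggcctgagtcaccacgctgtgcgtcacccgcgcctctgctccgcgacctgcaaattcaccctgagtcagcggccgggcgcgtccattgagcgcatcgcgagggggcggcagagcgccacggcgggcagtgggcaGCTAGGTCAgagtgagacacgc
Gclm (chr3:122245307-122245606, plus strand): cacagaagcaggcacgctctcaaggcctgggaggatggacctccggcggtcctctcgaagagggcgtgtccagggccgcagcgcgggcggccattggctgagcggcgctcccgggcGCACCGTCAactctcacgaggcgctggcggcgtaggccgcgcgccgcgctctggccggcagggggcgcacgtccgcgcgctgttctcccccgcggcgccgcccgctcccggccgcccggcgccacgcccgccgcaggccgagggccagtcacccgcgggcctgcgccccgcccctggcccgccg
The Mt2 promoter held 4 metal response element matches and the Mt1 promoter 3. Among all 32851 mouse promoters of the same length, 25.7% held at least 1, 1.97% held 3 or more and 0.517% held 4 or more. The antioxidant response element occurred in 12.4% of all promoters and the AP-1 site in 7.81%. Antioxidant response element matches also occurred in 1 of the 3 Txnrd1 promoters and, on an AP-1 site, in the Prdx1 promoter, which are not printed. The Srxn1 promoter also held 1 metal response element match and the Gclm promoter 3. In the Mt2 promoter 1 antioxidant response element match lay on an AP-1 site, and the Srxn1 promoter held 2 AP-1 sites that did not overlap its antioxidant response element match. The Srxn1 AP-1 site at -45 reads tgagtcagc, which differs from the searched TGACNNNGC only by g in place of C, so other forms of the element were not searched. The Sod2 and Nqo1 windows held 0 matches to the 3 motifs. These matches are letters in a window and say nothing about whether a factor bound there.

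Several arrays stood apart in control signals, cRNA yield or cell type markers, and the part of these in the member values was not tested. RNA integrity numbers were 8.4 to 10, with 10 on CD14-deficient LPS 48 h and 8.6 on CD14-deficient LPS 60 h. From each culture 0.3 µg of RNA gave 15 to 53.1 µg of labelled cRNA. The CD14-deficient LPS 48 h array had the lowest yield, 15 µg, and its 3 control probe sets for 18S ribosomal RNA read 114.4 to 384.7 in scaled signal units. The wild type LPS 60 h array read 216.8 to 685.1, with a yield of 19 µg, while the other 8 arrays read 1426.3 to 12656.1. Cd14 itself read 1499.0 on the wild type unstimulated array, 15538.1 to 17728.8 on the stimulated wild type arrays and at most 7.4 on the CD14-deficient arrays, under the floor of 13.4 below which signals are not told apart. Of 10 dendritic cell markers, 7 to 10 were above the filter signal of 99.2 on every array, with Cd209a at the floor on the wild type LPS 60 h and CD14-deficient LPS 48 h arrays. The 12 macrophage markers summed to 10693 on the CD14-deficient LPS 48 h array and to 16275 to 36867 on the other 7 stimulated arrays, against 43207 to 48247 on the unstimulated arrays, with Cd163 at the floor throughout. On the same array the dendritic cell markers summed to 66201, against 39371 to 59352 on the other stimulated arrays. Its 5 mast cell markers summed to 1495, against 180 to 551 on the other stimulated arrays and 293 to 622 on the unstimulated arrays. Of the 5, 2 were above the filter signal on this array, and Mcpt4 and Ms4a2 were at the floor. Erythroid markers summed to 30 to 83 and T and NK cell markers to 20 to 109 over all arrays, with none above the filter signal. In bulk RNA, fewer cells of a type and less of a transcript per cell cannot be told apart.

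**Figure D1:**
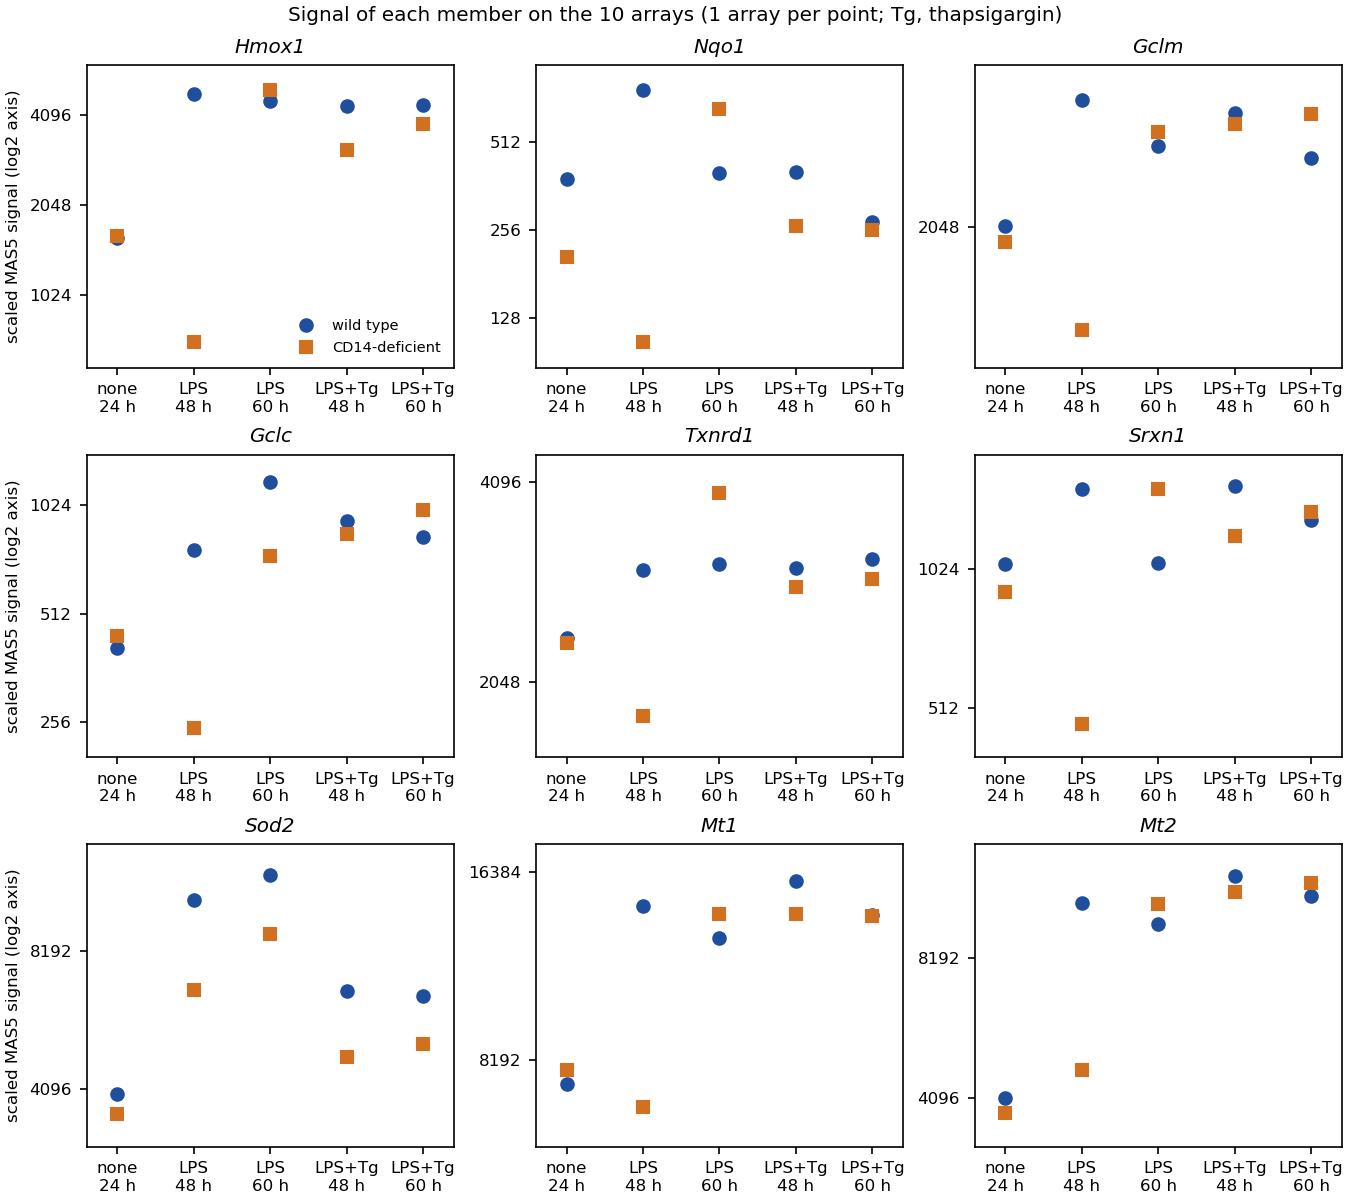
Scaled MAS5 signal (log2 axis) of the 9 measured genes on each of the 10 arrays, with circles for wild type and squares for CD14-deficient cells, from unstimulated (24 h) to LPS and LPS plus thapsigargin (Tg). The CD14-deficient LPS 48 h square is the lowest of all 10 points for 7 of the 9 genes, all but Sod2 and Mt2.

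In wild type cells LPS went with higher signal of all 9 genes at both times, but after correction over 7474 genes only the rise of Sod2 passed the threshold. The fitted LPS response is the mean log2 signal of the 48 and 60 h arrays minus that of the unstimulated array, with its standard error (SE) from limma. In wild type cells 1 of 9 members was called at an adjusted p under 0.05, against 15.9% of all tested genes. The median of the 9 fitted changes was 0.87 in log2 units, against -0.03 for all tested genes. In CD14-deficient cells 1 of 9 members, again Sod2, was called, against 4.17% of all genes, and the median was 0.23 against 0.03. In CD14-deficient cells Mt2 gave 0.90 ± 0.41 (limma adjusted p = 0.263), and the other 7 members lay between -0.10 ± 0.63 for Srxn1 and 0.36 ± 1.02 for Nqo1. The unstimulated arrays were harvested at 24 h and the LPS arrays at 48 and 60 h, so LPS and time in culture cannot be told apart in these responses. With 1 array per condition, the errors come from how unequally the conditions shift from 48 to 60 h, and the spread of separate cultures or mice is not in them.

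Sod2 detoxifies superoxide in mitochondria. In wild type cells its signal was 3993.6 without stimulation, 10609.5 and 11994.4 with LPS at 48 and 60 h, and 6704.1 and 6526.2 with LPS plus thapsigargin. In CD14-deficient cells it was 3612.2 without stimulation, 6748.2 and 8933.0 with LPS, and 4802.1 and 5141.3 with LPS plus thapsigargin. Both unstimulated arrays lay below all 8 stimulated arrays, and the 4 LPS arrays lay above the 4 LPS plus thapsigargin arrays. With LPS Sod2 rose by 1.50 ± 0.18 in log2 units in wild type cells (limma adjusted p = 0.00803) and by 1.10 ± 0.18 in CD14-deficient cells (adjusted p = 0.0355). Of the 8 fits that each left out 1 stimulated array, 6 kept the wild type call, and those without the wild type LPS 48 h or 60 h array gave limma adjusted p = 0.0569 and 0.0541. The CD14-deficient call was kept in 2 of the 8 fits, those without a CD14-deficient LPS array (limma adjusted p = 0.00342 without 48 h and 0.00331 without 60 h). In the other 6 fits it was lost, with limma adjusted p from 0.0908 without the wild type LPS 48 h array to 0.13 without the CD14-deficient LPS plus thapsigargin 48 h array. It was also lost without the filter on dim genes (limma adjusted p = 0.0724) and without the intensity trend (adjusted p = 0.0631). A second bright Sod2 probe set gave 1.46 ± 0.16 in wild type (limma adjusted p = 0.00698) and 1.11 ± 0.16 in CD14-deficient cells (adjusted p = 0.032) when every probe set was fitted as its own row.

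Mt1 and Mt2, the widely expressed metallothioneins, lie close together on chromosome 8 and followed each other across the arrays. Mt1 read 7472.5 in wild type unstimulated cells, 14432.9 and 12855.7 with LPS at 48 and 60 h, and 15825.2 and 13963.5 with LPS plus thapsigargin. In CD14-deficient cells Mt1 read 7883.3 unstimulated, 6876.0 and 14013.3 with LPS, and 14011.9 and 13906.6 with LPS plus thapsigargin. So 7 stimulated arrays lay within 12855.7 and 15825.2, and the eighth, CD14-deficient LPS 48 h, lay below both unstimulated arrays. Mt2 read 4113.6 in wild type unstimulated cells, 10693.6 and 9654.0 with LPS, and 12262.3 and 11097.0 with LPS plus thapsigargin. In CD14-deficient cells Mt2 read 3805.3 unstimulated, 4721.0 and 10664.1 with LPS, and 11280.3 and 11807.0 with LPS plus thapsigargin. The same array was again the lowest of the stimulated arrays, although for Mt2 it stayed above both unstimulated arrays. The wild type LPS responses were 1.30 ± 0.41 for Mt2 (limma adjusted p = 0.0849) and 0.87 ± 0.38 for Mt1 (adjusted p = 0.171), and neither passed. Pearson's r between the log2 signals of Mt1 and Mt2 was 0.973 over the 10 arrays and 0.989 over the 9 without CD14-deficient LPS 48 h, as a description of arrays that share the same cultures and normalization.

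Hmox1 encodes haem oxygenase 1, which breaks haem down to biliverdin, iron and carbon monoxide. It read 1579.9 in wild type and 1605.4 in CD14-deficient unstimulated cells. With LPS at 48 and 60 h it read 4851.5 and 4592.3 in wild type, and 711.3 and 4982.4 in CD14-deficient cells. With LPS plus thapsigargin it read 4395.5 and 4436.7 in wild type, and 3127.5 and 3833.3 in CD14-deficient cells. All stimulated arrays but CD14-deficient LPS 48 h therefore read 3127.5 or more, whereas that array read 0.4431 times the unstimulated CD14-deficient level. The fitted wild type LPS response of Hmox1 was 1.58 ± 0.86 (limma adjusted p = 0.258), and that in CD14-deficient cells 0.23 ± 0.86 (adjusted p = 0.901).

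Gclc and Gclm encode the catalytic and modifier subunits of glutamate-cysteine ligase, which makes the first step of glutathione synthesis. Gclc read 410.7 in wild type unstimulated cells, 768.3 and 1189.0 with LPS, and 924.9 and 834.9 with LPS plus thapsigargin. In CD14-deficient cells Gclc read 443.4 unstimulated, 245.8 and 741.9 with LPS, and 852.1 and 990.9 with LPS plus thapsigargin. Apart from the low CD14-deficient LPS 48 h value, stimulated arrays did not overlap the unstimulated ones. Gclm read 2054.9 in wild type unstimulated cells, 3441.5 and 2854.9 with LPS, and 3265.9 and 2718.4 with LPS plus thapsigargin. In CD14-deficient cells Gclm read 1926.2 unstimulated, 1342.8 and 3015.2 with LPS, and 3121.7 and 3249.1 with LPS plus thapsigargin. For Gclm too the CD14-deficient LPS 48 h array was the lowest and the other stimulated arrays lay above both unstimulated ones. The wild type LPS responses were 1.22 ± 0.50 for Gclc (limma adjusted p = 0.152) and 0.61 ± 0.45 for Gclm (adjusted p = 0.394).

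Txnrd1 is the cytosolic thioredoxin reductase, Srxn1 reactivates overoxidised peroxiredoxins and Nqo1 reduces quinones. Txnrd1 had the narrowest range of the 9 genes, with 2382.2 and 2347.8 on the wild type and CD14-deficient unstimulated arrays, 1820.5 on CD14-deficient LPS 48 h, 3940.8 on CD14-deficient LPS 60 h and 2847.5 to 3132.6 on the other 6. Srxn1 read 1048.7 and 910.3 on the unstimulated arrays, 473.2 on CD14-deficient LPS 48 h and 1054.5 to 1543.4 on the other 7. The wild type LPS 60 h value of Srxn1, 1054.5, lay just above the wild type unstimulated value. Nqo1 read 381.5 and 207.2 on the wild type and CD14-deficient unstimulated arrays, 770.5 and 402.0 with LPS in wild type, and 106.4 and 665.7 with LPS in CD14-deficient cells. With LPS plus thapsigargin Nqo1 read 403.3 and 273.3 in wild type and 263.5 and 256.2 in CD14-deficient cells. Nqo1 was the only member whose stimulated arrays overlapped the unstimulated ones even without CD14-deficient LPS 48 h. The wild type LPS responses were 0.36 ± 0.37 for Txnrd1, 0.27 ± 0.63 for Srxn1 and 0.54 ± 1.02 for Nqo1, with limma adjusted p of 0.545, 0.795 and 0.749.

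Counted over arrays, 2 of the 9 genes, Sod2 and Mt2, were higher on all 8 stimulated arrays than on both unstimulated arrays, as were 19.7% of all tested genes. Without the CD14-deficient LPS 48 h array 8 of the 9 genes did not overlap, all but Nqo1, against 24.1% of all tested genes. These counts were made with the values in view and carry no test.

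Within CD14-deficient LPS cells the 48 and 60 h arrays differed. All 9 members were higher at 60 h, 8 of them by more than 2-fold, and their median difference was 1.18 in log2 units. Over all tested genes the median difference was -0.04, and 17.4% were more than 2-fold apart in either direction. Hmox1 was 7.01-fold higher at 60 h and Nqo1 6.25-fold (log2 differences of 2.81 and 2.65), while Sod2 was 1.32-fold higher. In the other 3 stimulated conditions 0 of the 9 members were 2-fold apart between the times, and fewer of all tested genes were too. The members' medians were -0.15 in wild type LPS, -0.15 in wild type LPS plus thapsigargin and 0.07 in CD14-deficient LPS plus thapsigargin. In the same order, 6.57%, 1.54% and 2.53% of all tested genes were 2-fold apart. The CD14-deficient LPS 48 h array was the lowest of the 10 for 7 of 9 members and for 18.2% of all tested genes. The low macrophage marker sum, high mast cell marker sum and low 18S controls of this array, given above, stand beside these values, and their part in them was not tested. At 48 h 10 of 11 tested macrophage markers were more than 2-fold lower than at 60 h, with a median difference of -1.87. The wild type LPS 60 h array, the other with low 18S controls, differed most from its 48 h array for Nqo1, 1.92-fold lower, and Gclc, 1.55-fold higher. Whether low 18S controls go with member values was not tested.

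**Figure D2:**
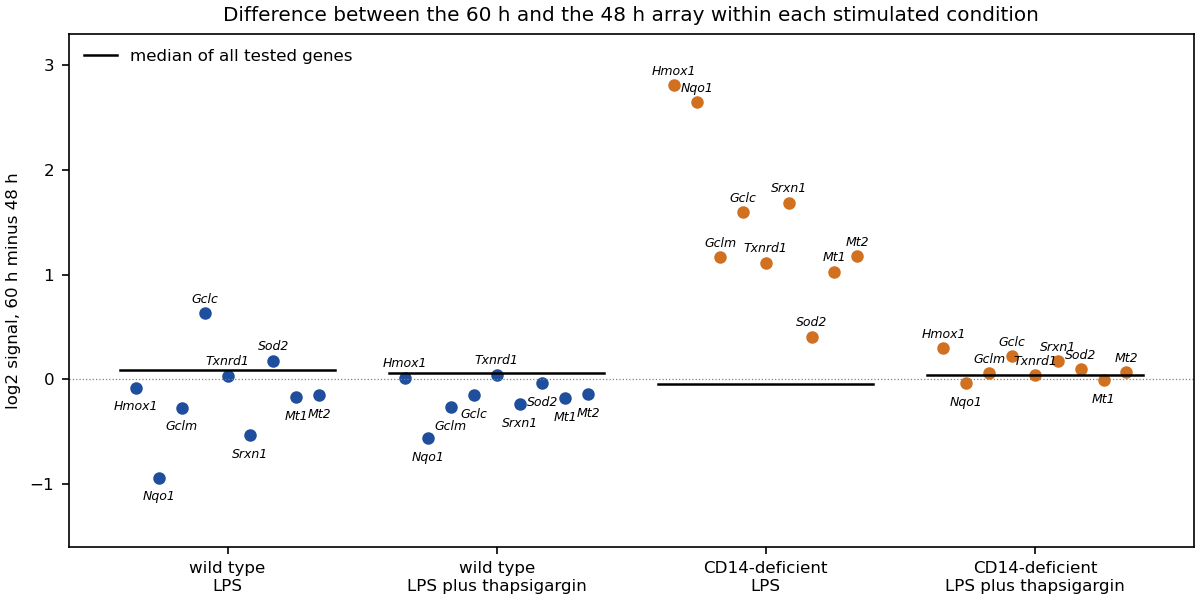
Difference in log2 signal between the 60 h and the 48 h array within each of the 4 stimulated conditions, 1 point per gene, with a black bar at the median of all tested genes. In CD14-deficient LPS cells all 9 genes lie above 0 with a median of 1.18, and in the other 3 conditions no gene is past 1 or -1.

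The fitted changes turned on the pair of CD14-deficient LPS arrays. Leaving out either array takes the difference between them out of the errors, so these fits do not tell which array stands apart. Without CD14-deficient LPS 48 h, 7 of 9 members were called in the wild type LPS response, all higher, against 43.8% of all genes, and 7 of 9 in the CD14-deficient response, all higher, against 15.9%. The fitted wild type values stayed as they were with smaller errors, 0.14 in place of 0.86 for Hmox1. Hmox1 then gave 1.58 in wild type (limma adjusted p = 0.000797) and 1.60 ± 0.17 in CD14-deficient cells (adjusted p = 0.00431). Mt2 gave 1.30 ± 0.10 (limma adjusted p = 0.000515) and 1.52 ± 0.12 (adjusted p = 0.002). Without CD14-deficient LPS 60 h, the same 7 members were called in wild type, against 43.9% of all genes. In that fit 5 of 9 members were called in the CD14-deficient LPS response, against 38.6% of all genes, with Hmox1 at -1.14 ± 0.17 (limma adjusted p = 0.00558) and Sod2 still higher at 0.94 ± 0.12 (adjusted p = 0.00331). Nqo1, Gclm and Srxn1 were called lower in that fit, at -1.22, -0.60 and -1.04. Hmox1, Nqo1 and Gclm were thus called in opposite directions depending on which CD14-deficient LPS array was left out. Srxn1 gave 0.84 ± 0.26 without the 48 h array (limma adjusted p = 0.0892) and was called without the 60 h array alone. In each of these fits the CD14-deficient LPS condition has 1 array, which is assumed to vary like the others.

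**Figure D3:**
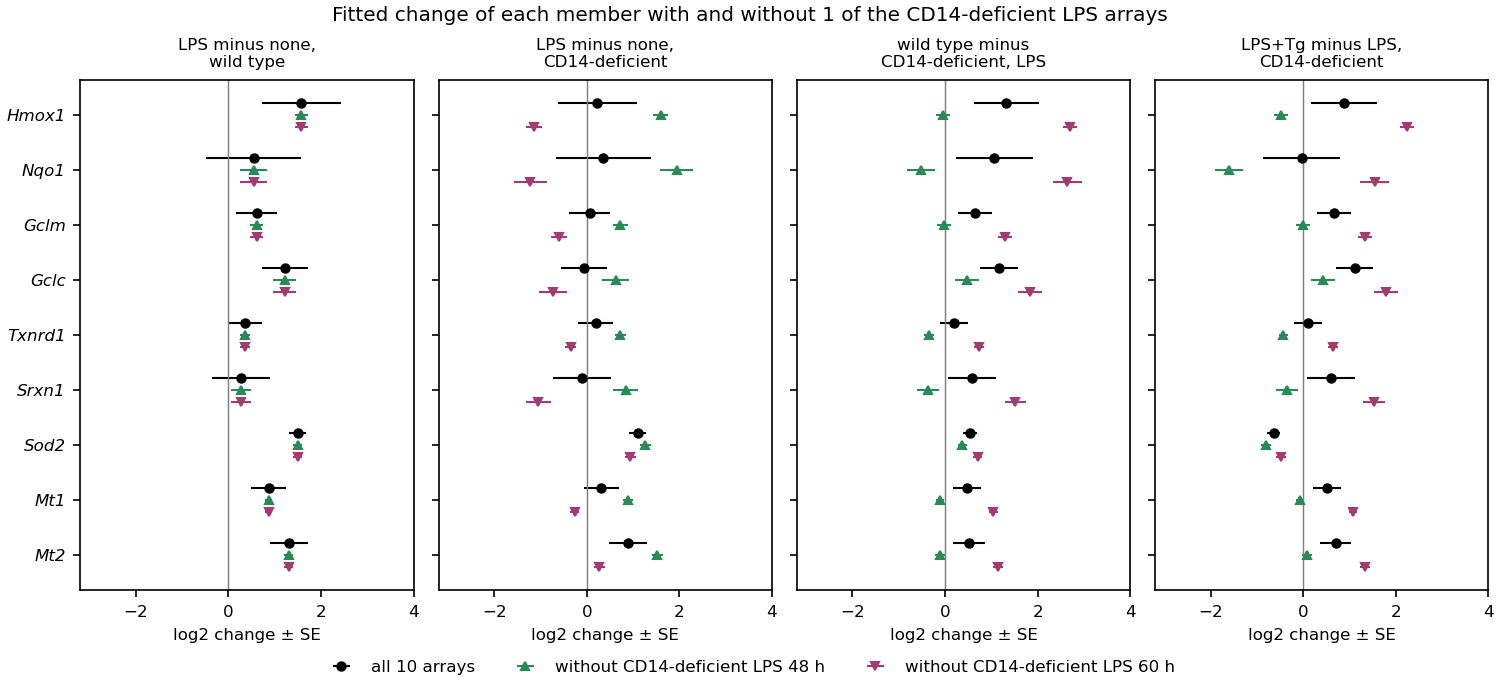
Fitted log2 change with its SE for each of the 9 genes in 4 comparisons, from all 10 arrays (black), without CD14-deficient LPS 48 h (green) and without CD14-deficient LPS 60 h (purple). For Hmox1 the CD14-deficient LPS response is 0.23 with all arrays, 1.60 without 48 h and -1.14 without 60 h, while Sod2 stays on the same side of 0 in every panel.

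The genotypes were then compared under LPS at matched times. Of the 9 members 0 were called, against 5.18% of all tested genes. All 9 fitted differences (wild type minus CD14-deficient) were above 0 with a median of 0.58, against -0.08 for all genes, led by Hmox1 at 1.33 ± 0.70 (limma adjusted p = 0.273) and Gclc at 1.16 ± 0.41 (adjusted p = 0.14), down to 0.19 ± 0.30 for Txnrd1 (adjusted p = 0.715). The pairs at the 2 times went different ways. At 48 h all 9 members were higher in wild type, 7 by more than 2-fold, with a median of 1.36, while 29.5% of all tested genes were 2-fold apart in either direction. At 60 h 2 members were higher and 7 lower in wild type, 0 of them by 2-fold, with a median of -0.12, against 12.8% of all genes 2-fold apart. Without the CD14-deficient LPS 48 h array 0 of 9 were called, against 17.8% of all genes. Without the 60 h array all 9 were called higher in wild type, against 44.3% of all genes, from 0.70 ± 0.10 for Sod2 (limma adjusted p = 0.00477) to 2.69 ± 0.15 for Hmox1 (adjusted p = 0.000628).

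Sod2 was the member with the same order of genotypes throughout. The wild type array read above its CD14-deficient counterpart in all 5 matched pairs, as were 7.32% of all tested genes, although 0 members had all 5 wild type arrays above all 5 CD14-deficient arrays, against 0.388% of all genes. Its fitted difference under LPS was 0.54 ± 0.15 (limma adjusted p = 0.0876) and that under LPS plus thapsigargin 0.41 ± 0.15 (adjusted p = 1). Neither passed.

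LPS with and without thapsigargin was compared within each genotype, since thapsigargin raises the calcium that activates NFAT. In wild type cells 0 of 9 members were called, against 0.0535% of all genes, and in CD14-deficient cells 0 of 9, against 6.62%. Sod2 was again the most regular member, with every LPS array above every LPS plus thapsigargin array, a pattern found in 1 of 9 members and 3.84% of all genes. Its fitted change with thapsigargin was -0.77 ± 0.15 in wild type (limma adjusted p = 0.181) and -0.64 ± 0.15 in CD14-deficient cells (adjusted p = 0.0593). The macrophage markers summed to 16275 to 20911 on the 4 LPS plus thapsigargin arrays and to 10693 to 36867 on the LPS arrays, where CD14-deficient LPS 48 h was the only one below its thapsigargin counterpart. Neutrophil markers summed to 3243 to 4779 there and to 8436 to 12269 on the LPS arrays, and stromal markers to 617 to 881 and 1386 to 3263. Most of the neutrophil sum on the LPS arrays was Lcn2, at 6171.7 to 10462.9. With LPS in wild type cells Lcn2 was called higher, but S100a8, S100a9 and Ngp lower. The stromal sums were mostly Dcn or Fn1, with Col1a1 and Col3a1 at the floor on all 4 LPS plus thapsigargin arrays. Whether these sums follow cell numbers, and their part in the Sod2 values, was not tested. Without the CD14-deficient LPS 48 h array Sod2 was called lower with thapsigargin in both genotypes, by -0.77 ± 0.08 (limma adjusted p = 0.00998) and -0.81 ± 0.10 (adjusted p = 0.00566). In that fit 1 of 9 members was called in wild type, against 7.84% of all genes, and 3 of 9 in CD14-deficient cells, against 28.8%. The other 2 members called lower in that CD14-deficient fit were Nqo1 at -1.61 ± 0.30 (limma adjusted p = 0.0157) and Txnrd1 at -0.43 ± 0.11 (adjusted p = 0.0325).

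For the other members the thapsigargin comparison in CD14-deficient cells again differed with the LPS array used. The fitted changes were led by Gclc at 1.11 ± 0.41 (limma adjusted p = 0.145) and Hmox1 at 0.88 ± 0.70 (adjusted p = 0.452). At 48 h 8 of 9 members were higher with thapsigargin than with LPS alone, 7 of them by more than 2-fold, with a median of 1.26, while 21.2% of all genes were 2-fold apart in either direction. At 60 h 3 were higher and 6 lower, 1 of them by 2-fold, with a median of -0.17, against 16.1% of all genes 2-fold apart. Without the CD14-deficient LPS 60 h array all 9 were called, against 38.7% of all genes, 8 higher and Sod2 lower, with Hmox1 at 2.25 ± 0.15 (limma adjusted p = 0.00159). In wild type cells 0 members were 2-fold apart at either time, with medians of 0.01 at 48 h and -0.05 at 60 h.

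The remaining comparisons held no called member. Between the genotypes under LPS plus thapsigargin 0 of 9 were called, against 0.0268% of all genes, and the fitted differences ran from -0.10 for Gclm to 0.41 for Sod2. For 60 h against 48 h over the stimulated arrays 0 of 9 members and 0% of all genes were called by limma, with 734 genes at an unadjusted p under 0.05. For the difference of the thapsigargin effects between genotypes the counts were 0 of 9 and 0%, with 994 genes at that unadjusted level. For the difference of the LPS responses they were 0 of 9 and 0%, with 613 genes. The largest differences of LPS responses (wild type minus CD14-deficient) were 1.35 ± 1.22 for Hmox1 (limma adjusted p = 0.772) and 1.27 ± 0.71 for Gclc (adjusted p = 0.668). Without the CD14-deficient LPS 60 h array 6 of 9 members were called for the difference of LPS responses, against 18.3% of all genes, and 8 of 9 for the difference of thapsigargin effects, against 25.4%. All of these were above 0, with Hmox1 at 2.71 ± 0.22 (limma adjusted p = 0.00639) and 2.34 ± 0.19 (adjusted p = 0.00511). Without the 48 h array 0 of 9 were called in either. Between the unstimulated arrays 0 of 9 members were 2-fold apart, against 1.32% of all genes, with 6 higher and 3 lower in wild type.

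Where a gene had more than 1 probe set, the brightest was used. The other Gclc probe set read 541.3 and 415.5 on the wild type and CD14-deficient unstimulated arrays, 291.2 on CD14-deficient LPS 48 h and 652.2 to 963.6 on the other 7, and gave 0.51 ± 0.43 for the wild type LPS response (limma adjusted p = 0.465). Srxn1 had 3 others, of which the second brightest read 412.0 and 342.2 on the wild type and CD14-deficient unstimulated arrays, 186.3 on CD14-deficient LPS 48 h and 793.8 to 1521.7 on the other 7, and its wild type LPS response was 1.42 ± 0.87 (limma adjusted p = 0.316). All 4 Srxn1 probe sets put the CD14-deficient LPS 48 h array lowest. Apart from that array, the second brightest separated stimulated from unstimulated arrays by more than the brightest. The next read 184.5 and 197.4 on the wild type and CD14-deficient unstimulated arrays. On CD14-deficient LPS 48 h it read 47.9, and on the other 7 arrays 226.7 to 562.7. The dimmest, at 18.4 to 138.9, read 61.4 on wild type LPS 60 h, below its 68.2 on wild type unstimulated. The second Mt1 probe set was dim at 69.3 to 210.9 and gave the opposite sign in the wild type LPS response, -0.73 ± 0.38 (limma adjusted p = 0.245). The further probe sets of Txnrd1 and Sod2 were dim.

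Among 9 tested regulators of the pathway, 2 rose with LPS in wild type cells and 0 fell, where 15.9% of all tested genes were called: Maff at 1.39 ± 0.21 (limma adjusted p = 0.0129) and Mafg at 1.18 ± 0.27 (adjusted p = 0.0401), both small Maf partners of Nrf2. Each of these calls was kept in 2 of the 8 fits that left out 1 stimulated array, those without a CD14-deficient LPS array, with limma adjusted p of up to 0.0702 and 0.148 in the others. In the other comparisons 0 of the 9 were called, against 0% to 6.62% of all tested genes. Nfe2l2 read 4940.1 and 4479.9 on the wild type and CD14-deficient unstimulated arrays, 2239.0 and 3768.3 with LPS in wild type, and 3039.1 and 5193.3 with LPS in CD14-deficient cells. Its wild type LPS response was -0.77 ± 0.22 (limma adjusted p = 0.0693). Bach1, the repressor, gave -0.96 ± 0.28 in wild type (limma adjusted p = 0.0708) and -1.01 ± 0.28 in CD14-deficient cells (adjusted p = 0.112), and Keap1 gave 0.08 ± 0.21 and 0.03 ± 0.21. At 48 h against 60 h in CD14-deficient LPS cells 0 of the 9 regulators were 2-fold apart, with a median of 0.07, against 17.4% of all tested genes.

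Of 18 further Nrf2 target genes tested, 2 rose and 2 fell with LPS in wild type cells, a count near the 15.9% called among all tested genes. Slc7a11, the cystine transporter that feeds glutathione synthesis, read 332.6 and 297.5 on the wild type and CD14-deficient unstimulated arrays, 3957.5 and 3128.2 with LPS in wild type, and 864.2 and 1859.1 with LPS in CD14-deficient cells. With LPS plus thapsigargin it read 2354.8 and 1841.7 in wild type and 2185.1 and 1594.0 in CD14-deficient cells, so every stimulated array lay above both unstimulated ones. Its wild type LPS response was 3.40 ± 0.49 (limma adjusted p = 0.0116), and the export pump Abcc1 rose by 1.60 ± 0.22 (adjusted p = 0.0103). Idh1 and Tkt, which supply NADPH and pentose phosphates, fell by 1.99 ± 0.42 (limma adjusted p = 0.0317) and 1.28 ± 0.15 (adjusted p = 0.00794). Tkt lies outside the naming rule for this comparison and was named after its values were seen. Without the wild type LPS 60 h array all 4 calls were lost, and without the 48 h array all but that of Abcc1, with limma adjusted p of up to 0.0698 for Slc7a11, 0.0544 for Abcc1, 0.137 for Idh1 and 0.0574 for Tkt over the 8 fits. That of Idh1 was lost as well without either CD14-deficient LPS plus thapsigargin array. Idh1 was also called lower in wild type than in CD14-deficient cells under LPS, at -1.78 ± 0.34 (limma adjusted p = 0.0455). Tkt was called lower as well, at -0.71 ± 0.12 (limma adjusted p = 0.0387), where 5.18% of all tested genes were called. With thapsigargin in CD14-deficient cells Idh1 fell by 2.16 ± 0.34 (limma adjusted p = 0.0246), where 6.62% of all tested genes were called. Each of these 3 calls was kept in 2 of the 8 fits, those without a CD14-deficient LPS array. On the CD14-deficient LPS 48 h array 10 of the 18 were more than 2-fold lower than on its 60 h counterpart, with a median of -1.07. Over all tested genes 17.4% were 2-fold apart in either direction. The 48 h array was the lowest of the 10 for 8 of the 18, against 18.2% of all tested genes.

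Of 16 other antioxidant enzymes, 1 fell with LPS in wild type cells, where 15.9% of all tested genes were called. It was the biliverdin reductase Blvra, at -1.26 ± 0.32 (limma adjusted p = 0.0494). With thapsigargin in CD14-deficient cells 1 fell, where 6.62% of all tested genes were called. It was the glutathione peroxidase Gpx1, at -0.57 ± 0.12 (limma adjusted p = 0.0488). Of 14 tested genes of zinc and metal handling, 1 was called between the genotypes under LPS, against 5.18% of all tested genes. Slc30a1, the zinc exporter that MTF-1 also activates, was higher in wild type cells by 1.75 ± 0.33 (limma adjusted p = 0.0441). It read 283.1 and 322.7 in wild type and 68.5 and 117.4 in CD14-deficient cells with LPS, so both wild type values lay above both CD14-deficient values. With thapsigargin in CD14-deficient cells the zinc transporter Slc39a7 rose by 0.92 ± 0.16 (limma adjusted p = 0.0293) and Slc39a1 fell by 0.79 ± 0.17, with an adjusted p that rounds to 0.05. That is 1 higher and 1 lower of the 14, where 6.62% of all tested genes were called. These 5 calls too were kept only in the 2 fits without a CD14-deficient LPS array. Mtf1 was not called in any comparison and read 479.1 on CD14-deficient LPS 48 h, the highest of its 10 values, with 207.5 and 215.7 on the unstimulated arrays. Of 6 tested oxidant-producing enzymes, the NADPH oxidase subunits and Nos2 among them, 0 were called in any comparison, against 0% to 15.9% of all tested genes.

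**Figure D4:**
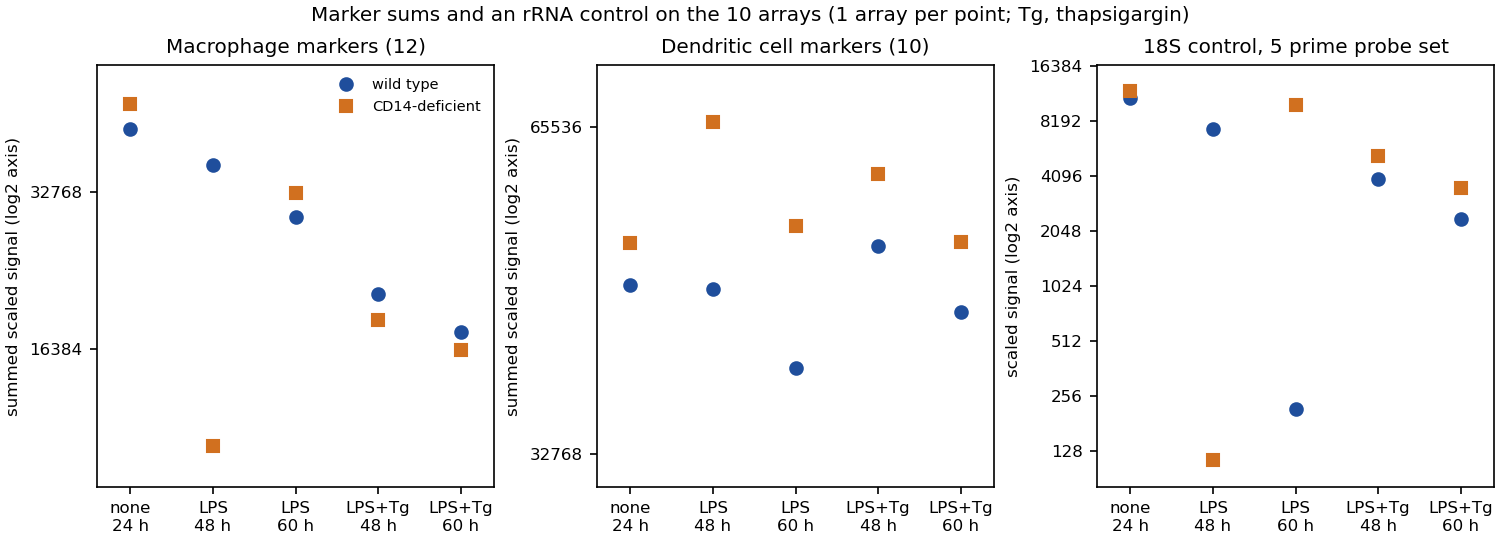
Summed scaled signal of 12 macrophage markers and of 10 dendritic cell markers, and the scaled signal of an 18S ribosomal RNA control, on each of the 10 arrays (log2 axes, circles wild type, squares CD14-deficient). The CD14-deficient LPS 48 h array has the lowest macrophage sum, 10693, the highest dendritic cell sum, 66201, and the lowest 18S control, 114.4.

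By likeness of pattern over the 10 arrays, the tested genes other than the members closest to Hmox1 were Emc7, Lamp2 and Sar1b, with Pearson's r of 0.977, 0.968 and 0.966 between log2 signals. Those closest to Sod2 were Dcn (0.965), which is also 1 of the stromal markers, Fyb (0.958) and U90926 (0.957). Those closest to the mean of Mt1 and Mt2 were Stx17 (0.981), Rabac1 (0.976) and Nos2 (0.964), which is also on the list of oxidant-producing enzymes. These are descriptions over 10 arrays that share 1 normalization, and for Hmox1 and the metallothioneins the low CD14-deficient LPS 48 h array enters each value.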

How the data were processed

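RNA from 10 cultures was hybridised to single-colour arrays, 1 per condition. The authors deposited 1 linear intensity per probe set, made with MAS5 per the submitters' processing notes. The sources used here give neither the MAS5 version nor its scaling target. Each array was scaled to the same 2% trimmed mean, 509 (deposited values ran from 444 to 553, factors from 0.92 to 1.15). The pooled 25th percentile, 13.4, served as a floor before log2 was taken. Of 22690 probe sets, 64 were controls, 20380 carried 1 gene symbol, 691 several and 1619 none or were controls. Of the 20380, 20351 matched RefSeq (GRCm38.p6) by Entrez ID, with 0 symbols changed. The probe set of highest mean stood for its gene. Genes above the pooled median signal, 99.2, on at least 2 arrays were tested, 7474 of 12393 genes.

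With limma 3.58.1 (R 4.3.3) a linear model was fitted to all 10 arrays, holding 6 genotype-by-treatment levels plus an effect of 60 h. It left 3 residual degrees of freedom, and eBayes with an intensity trend added 2.95. Each of 9 comparisons was tested two-sided, with Benjamini-Hochberg adjustment across the 7474 genes and calls made under 0.05. The script was tested on simulated data. Alternatives were no scaling, quantile normalization, a pseudocount of 16 in place of the floor, no filter, every probe set as a row, no intensity trend, and leaving out each stimulated array, and, chosen after seeing the data, both arrays of low 18S control signal. The number of arrays limits the precision. Members and lists were chosen with earlier results of these data known. Every member was to be named. From each other list up to 3 called genes of largest change were named, and Nfe2l2, Keap1, Bach1 and Mtf1 whatever their values. Likeness of pattern named the 3 genes of highest Pearson's r to Hmox1, to Sod2 and to the mean of Mt1 and Mt2.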

Additional observations from a re-analysis of the deposited data

How the results depend on the processing

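Scaling, floor, filter and variance model changed the direction or call of few member results, and leaving out an array changed many. With every probe set as a row each member kept its brightest probe set, so the choice of probe set was not varied there. Other probe sets gave wild type LPS responses of -0.73 against 0.87 for Mt1, 1.42 against 0.27 for Srxn1 and 0.51 against 1.22 for Gclc. For Sod2 they were alike, at 1.46 against 1.50. Quantile normalization and the pseudocount kept every member's direction and side of the threshold. Without scaling 6 uncalled values changed sign: Gclc (0.080) and Srxn1 (0.034) in the CD14-deficient LPS response, Txnrd1 with thapsigargin in wild type (-0.048), Mt2 between genotypes under LPS plus thapsigargin (-0.048), and Nqo1 (-0.025) and Txnrd1 (-0.042) in the difference of LPS responses. The count of called members in the CD14-deficient LPS response was 0 with no filter and 0 with no intensity trend. Counts of all genes called moved by over 1.5 times with no scaling (thapsigargin in wild type 17), with no filter (genotype under LPS 105, thapsigargin in wild type 7 and in CD14-deficient cells 153, genotype under LPS plus thapsigargin 1, difference of thapsigargin effects 5, difference of LPS responses 192), with every probe set as a row (thapsigargin in wild type 0 by limma and in CD14-deficient cells 782) and with no trend (thapsigargin in wild type 12, genotype under LPS plus thapsigargin 4, difference of thapsigargin effects 2). Without both arrays of low 18S control signal the called members numbered 8 and 9 in the wild type and CD14-deficient LPS responses (50.1% and 28.2% of all genes), 2 and 4 with thapsigargin (15.7% and 43.5%) and 1 between genotypes under LPS plus thapsigargin (5.04%). The cause of these changes was not tested.

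Over the 8 fits that each left out 1 stimulated array, the results ranged as follows, with log2 changes for the genes. For LPS response, wild type, 170 to 3281 genes and 0 to 7 members were called, with Hmox1 1.02 to 2.14, Nqo1 -0.27 to 1.35, Gclm 0.31 to 0.90, Gclc 1.18 to 1.26, Txnrd1 0.17 to 0.54, Srxn1 -0.26 to 0.81, Sod2 1.49 to 1.51, Mt1 0.64 to 1.09, Mt2 1.05 to 1.56. For LPS response, CD14-deficient, 22 to 2883 genes and 0 to 7 members were called, with Hmox1 -1.14 to 1.60, Nqo1 -1.22 to 1.94, Gclm -0.60 to 0.73, Gclc -0.73 to 0.63, Txnrd1 -0.35 to 0.73, Srxn1 -1.04 to 0.84, Sod2 0.94 to 1.27, Mt1 -0.26 to 0.89, Mt2 0.27 to 1.52. For genotype under LPS, 2 to 3309 genes and 0 to 9 members were called, with Hmox1 -0.040 to 2.69, Nqo1 -0.52 to 2.64, Gclm -0.023 to 1.30, Gclc 0.48 to 1.84, Txnrd1 -0.35 to 0.72, Srxn1 -0.37 to 1.52, Sod2 0.38 to 0.70, Mt1 -0.10 to 1.05, Mt2 -0.11 to 1.14. For thapsigargin under LPS, wild type, 0 to 594 genes and 0 to 1 members were called, with Hmox1 -0.65 to 0.46, Nqo1 -1.55 to 0.064, Gclm -0.37 to 0.22, Gclc -0.60 to 0.36, Txnrd1 -0.17 to 0.20, Srxn1 -0.37 to 0.70, Sod2 -0.90 to -0.64, Mt1 -0.11 to 0.36, Mt2 -0.057 to 0.46. For thapsigargin under LPS, CD14-deficient, 0 to 2894 genes and 0 to 9 members were called, with Hmox1 -0.49 to 2.25, Nqo1 -1.61 to 1.54, Gclm -0.00051 to 1.32, Gclc 0.43 to 1.79, Txnrd1 -0.43 to 0.65, Srxn1 -0.35 to 1.53, Sod2 -0.81 to -0.48, Mt1 -0.065 to 1.08, Mt2 0.076 to 1.33. For genotype under LPS plus thapsigargin, 1 to 56 genes and 0 to 0 members were called, with Hmox1 -0.15 to 0.85, Nqo1 -0.20 to 0.91, Gclm -0.39 to 0.20, Gclc -0.55 to 0.42, Txnrd1 -0.084 to 0.27, Srxn1 -0.19 to 0.49, Mt1 -0.14 to 0.32, Mt2 -0.24 to 0.27. For 60 h against 48 h, 0 to 101 genes and 0 to 0 members were called, with Nqo1 -0.51 to 0.68, Gclm -0.16 to 0.32, Srxn1 -0.20 to 0.54, Mt1 -0.12 to 0.28, Mt2 -0.075 to 0.37. For difference of thapsigargin effects, 0 to 1899 genes and 0 to 8 members were called, with Hmox1 -0.39 to 2.34, Nqo1 -0.87 to 2.29, Gclm 0.073 to 1.40, Gclc 0.55 to 1.91, Txnrd1 -0.44 to 0.63, Srxn1 -0.52 to 1.37, Sod2 -0.037 to 0.29, Mt1 -0.19 to 0.96, Mt2 -0.12 to 1.13. For difference of LPS responses, 0 to 1367 genes and 0 to 6 members were called, with Hmox1 -0.017 to 2.71, Nqo1 -1.40 to 1.76, Gclm -0.12 to 1.21, Gclc 0.59 to 1.95, Txnrd1 -0.37 to 0.70, Srxn1 -0.57 to 1.32, Mt1 -0.023 to 1.12, Mt2 -0.22 to 1.03.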

Other observations

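The 5 probe sets annotated to both Prdx1 and Gm21399 were not attributed to either gene. 3 of them were bright on every array, at 6407.4 to 17706.1. On the other 2 the LPS plus thapsigargin arrays lay below the LPS arrays, except CD14-deficient LPS 48 h. The brighter read 6129.6 and 4704.9 with LPS at 48 and 60 h in wild type, 1425.1 and 4998.5 with LPS in CD14-deficient cells, and 2257.1 to 2586.1 on the 4 LPS plus thapsigargin arrays.

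Over the 9 arrays without CD14-deficient LPS 48 h the genes closest to Hmox1 were Orm1, Cxcl5 and Slpi (Pearson's r of 0.976, 0.972 and 0.972), and those closest to the mean of Mt1 and Mt2 were Rab20, Ddit4 and Timm8b (0.996, 0.992 and 0.989). These names were chosen after their values were seen. None of these 6 is among the 3 closest genes over all 10 arrays. For Sod2 the closest over the 9 arrays were Sdc1, Dcn and U90926 (0.981, 0.974 and 0.971), of which Dcn and U90926 are also among its 3 closest over 10.

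On the CD14-deficient LPS 48 h array 2 of 3 measured B cell markers were above the filter signal, and the 3 summed to 506, against 59 to 221 on the other stimulated arrays.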
